A study of Drosophila melanogaster with 12 samples.

Results

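In Drosophila, yolk proteins are made in the female fat body and in the ovarian follicle cells and are taken up by the growing oocyte through a receptor on its surface. The follicle cells then lay down the vitelline membrane and the chorion, which together form the eggshell, while the germline loads the oocyte with maternal mRNAs and proteins that pattern the embryo and start its development. After mating, sperm are stored in the spermathecae, whose secretory cells release proteases and other proteins. The genes described here belong to these 4 steps of egg production and fertility in Drosophila melanogaster: 4 yolk genes, 19 eggshell genes, 18 maternal germline genes and 2 spermathecal endopeptidase genes. They were chosen by name, and a probe set was taken where its only gene symbol in the array's annotation was that of the gene. Of the 43 genes, 39 had such a probe set, among 10424 genes tested in all. The eggshell genes Cp7Fa, Cp7Fb, Vm26Ab and Vml had none and are not analysed here.

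The study measured total RNA of fruit flies on Affymetrix Drosophila arrays in 4 groups of 3 arrays: adults with knockdown of Sps2, adults of the wild type, larvae with knockdown of Sps2 and larvae of the wild type. Sps2 encodes selenophosphate synthetase 2, the enzyme that makes the selenium donor for selenoproteins. Each array is labelled as a biological replicate, and all flies were raised on the same cornmeal and yeast food. The sources used here do not state how the knockdown was made, which line was the wild type, whether the flies were male or female, how old they were, or whether whole bodies were used. The values are MAS5 signals on a log2 scale, and a value below the 40th percentile of its own array (5.10 to 5.39 log2 across the arrays) is treated here as close to background. A gene is called where limma, fitted to all 12 arrays, gave a Benjamini-Hochberg adjusted p under 0.05 over all 12827 probe sets tested, and n is 3 arrays in each group throughout.

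Sps2 itself read 7.10, 7.11 and 6.82 in adult knockdown, against 9.82, 9.78 and 9.84 in adult wild type (log2 change -2.80, SE 0.12, adjusted p = 2.66e-08). In larval knockdown it read 7.56, 7.11 and 7.21, against 9.62, 9.49 and 9.70 in larval wild type (-2.31, SE 0.12, adjusted p = 1.37e-07). The knockdown arrays lay below the wild-type arrays at both stages, as their labels state. The median log2 signal was 6.37 to 6.48 on the adult knockdown arrays and 6.69 to 6.77 on those of adult wild type. For larvae it was 6.03 to 6.16 with the knockdown and 5.95 to 6.04 without it. Centring each array on its own median moved the median adult change of all genes to 0.23 log2, against -0.05 as deposited, so adult directions and calls that this changes are given beside the result. The 3′ minus 5′ signal of 3 control transcripts, a measure of RNA integrity, averaged 2.44 ± 0.07 log2 in adult knockdown and 2.42 ± 0.07 in adult wild type (SD, n = 3 each), and among larvae 3.70 ± 0.06 with the knockdown and 3.51 ± 0.11 in wild type.

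All 39 measured genes had a mean above the background level in both adult groups, and most were close to background in larvae. With a mean below the 40th percentile there were 0 genes in each adult group, 25 in knockdown larvae and 26 in wild-type larvae. Adults of the wild type were called higher than larvae of the wild type for 39 of 39 genes, where 56.6% of all genes were called higher. Knockdown adults were called higher than knockdown larvae for 38 of 39, where 53.3% of all genes were. Both counts are for the deposited scaling. Quantile normalization called 37 higher and 1 lower in adults in each comparison. Median centring called 36 higher in each, with 2 lower in wild-type adults and 1 lower in knockdown adults. Over all 12827 probe sets it called 4525 higher in wild-type adults and 5410 higher in knockdown adults. Against wild-type larvae at the background level, wild-type adults were at least 493-fold higher for Yp1, at least 480-fold for Yp2, at least 387-fold for Vm26Aa and at least 337-fold for Cp36. Vm34Ca, above that level in both, was 545-fold higher in wild-type adults than in wild-type larvae.

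A few of the genes had clear larval signal. As deposited, the wild-type difference of adults over larvae was 1.17-fold for BicD, which links mRNA cargo to dynein, 1.30-fold for grk, which encodes a TGF-alpha-like ligand, and 2.38-fold for stau, which encodes a double-stranded RNA-binding protein. The median signal was 6.69 to 6.77 on wild-type adult arrays and 5.95 to 6.04 on wild-type larval arrays. The directions for BicD and grk therefore depend on scaling. In knockdown animals, as deposited, grk was the single gene of the 39 not called between the stages (log2 change -0.01, SE 0.08, adjusted p = 0.866). Yolk gene Yp3 was also measured in larvae and was 41.9-fold higher in adult than in larval wild type. The probe set of vas, an RNA helicase of the germ plasm, read only 5.98 to 6.28 in adult knockdown and 5.31 to 5.87 in adult wild type, and a probe set it shares with another gene was not used.

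**Figure D1:**
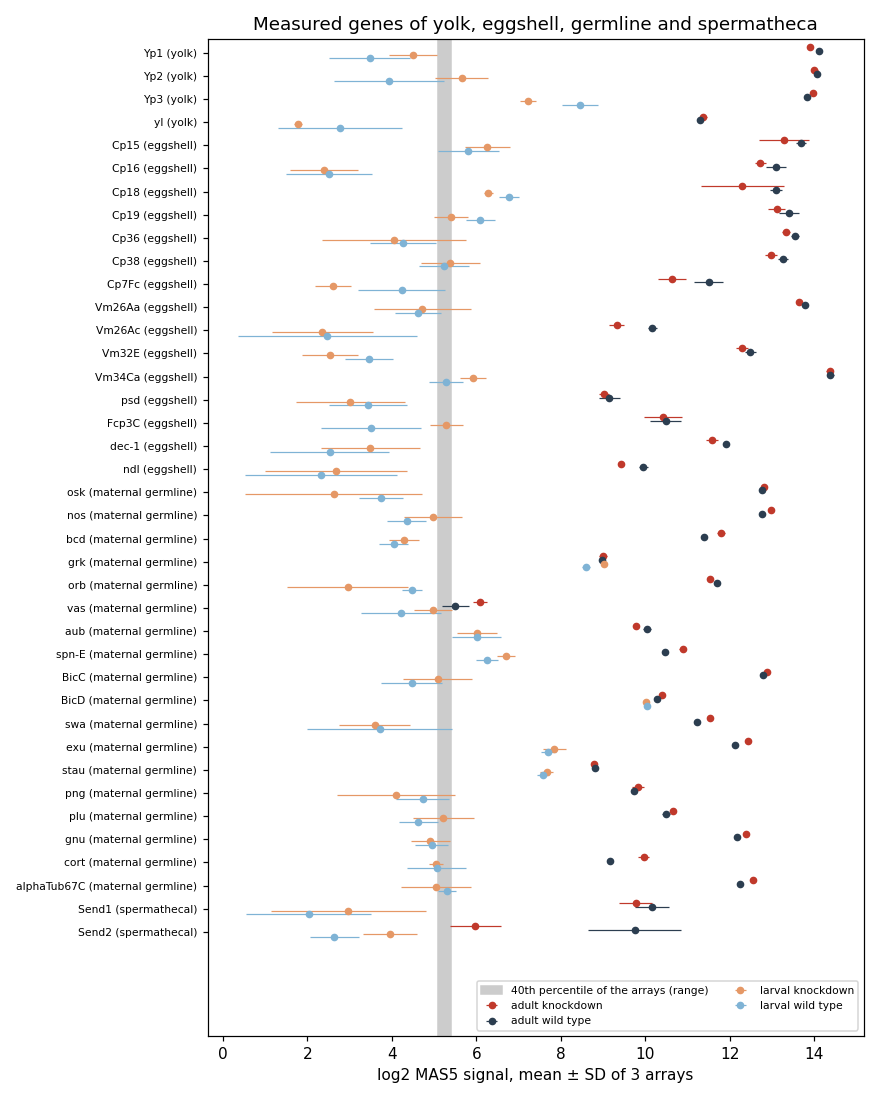
Mean log2 MAS5 signal with SD of 3 arrays (horizontal axis) for each of the 39 measured genes (vertical axis) in the 4 groups. The grey band spans the arrays' 40th percentiles, 5.10 to 5.39. Adult means lie to its right, while 25 genes of the knockdown larvae and 26 of the wild-type larvae fall below their own group's percentile.

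In adults, the clearest change with the knockdown was in Send2, a spermathecal endopeptidase. It read 6.52, 5.34 and 6.07 in adult knockdown, against 8.50, 10.57 and 10.19 in adult wild type. All 3 knockdown arrays lay below all 3 wild-type arrays, although the wild-type arrays themselves spread widely. The log2 change was -3.78 (SE 0.55, adjusted p = 0.000329), which is 13.7-fold lower in the knockdown, and under 22 other settings it lay between -4.40 and -3.37 and was called in each. In RNA of mixed tissues, fewer cells of a type and less RNA per cell cannot be told apart, here or for any gene below.

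Send1, the other spermathecal endopeptidase, did not follow at that size. It read 10.11, 9.33 and 9.87 in adult knockdown, against 9.72, 10.51 and 10.23 in adult wild type. The groups overlapped, and the log2 change of -0.39 was not called when larval arrays shared the fit (SE 0.82, adjusted p = 0.760). A limma fit to the adult arrays alone gave a smaller SE of 0.22 and no call (adjusted p = 0.181). That fit called Send1 lower without adult wild-type replicate 1 (-0.60, adjusted p = 0.0417), but not without any other single adult array. With median centring its change there was -0.11 and was not called. In larvae both genes were below background level in both groups, so no fold is given. Among 7 measured genes of the female reproductive tract outside this set, 4 passed the filter on dim probe sets, and 0 were called higher and 2 lower in knockdown adults. Of all genes 14.2% were called higher and 16.2% lower. In point estimate 4 of the 7 were higher and 3 lower (median 0.07), and 4 were below background level in both adult groups. The called genes were Gld, a glucose dehydrogenase found in the sperm-storage organs (-0.95, SE 0.19, adjusted p = 0.00303), and Hr39, a nuclear receptor needed to form the spermathecal glands (-0.55, SE 0.15, adjusted p = 0.0157; not called with median centring, -0.27).

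**Figure D2:**
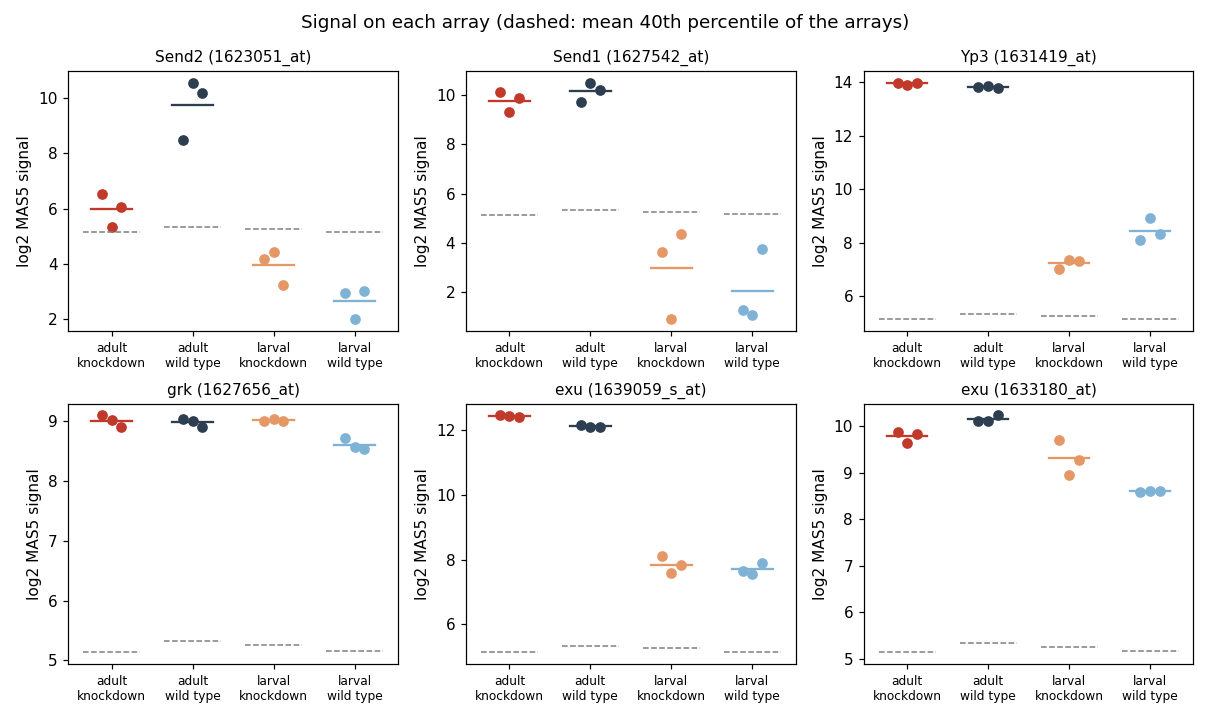
Log2 MAS5 signal (vertical axis) on each array of the 4 groups for Send2, Send1, Yp3, grk and the 2 probe sets of exu (brighter, then dimmer), with group means as solid bars and the mean 40th percentile of the group's arrays dashed. Send2 reads 5.34 to 6.52 in adult knockdown and 8.50 to 10.57 in adult wild type, while Send1 overlaps between these groups.

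Over the 39 genes, adult knockdown and adult wild type differed in few calls when all 12 arrays shared 1 spread: 2 were called higher and 1 lower, where 30.4% of all genes were called (14.2% higher and 16.2% lower). With each array centred on its median, 6 were called higher and 1 lower, where 37.8% of all genes were called higher and 6.42% lower. As deposited, the 3 called genes were a smaller share than the background. These genes were even among adults and scattered in larvae, where their signal was mostly close to background. Their median SD was 0.09 log2 in adult knockdown and 0.07 in adult wild type, but 0.64 in knockdown larvae and 0.58 in wild-type larvae. Over all probe sets, tested or not, the median SD was 0.20 in knockdown adults and 0.17 in wild-type adults, and 0.29 in knockdown larvae and 0.28 in wild-type larvae. That background includes dim probe sets, which the filter removed from the tests.

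Fitted to the 6 adult arrays alone, 9 of 39 genes were called higher and 12 lower, where 51% of all genes were called (23.6% higher and 27.4% lower). Here the share of these genes called was close to that of all genes. With each array centred on its median, the same fit called 21 higher and 4 lower, against 45% of all genes higher and 12.1% lower. Results of this fit are marked below as from the adult arrays alone. Group by group, as deposited, it called 0 of 15 eggshell genes higher and 8 lower, 8 of 18 maternal germline genes higher and 2 lower, 1 of 4 yolk genes higher and 1 lower, and 0 of 2 spermathecal genes higher and 1 lower. With median centring these counts were 2 eggshell genes higher and 3 lower, 16 germline genes higher and 0 lower, 3 yolk genes higher and 0 lower, and 0 spermathecal genes higher and 1 lower. Quantile normalization gave 0 eggshell genes higher and 4 lower, and 11 germline genes higher and 2 lower. Under it 24.2% of all genes were called higher and 21.1% lower.

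The yolk genes differed by at most 0.20 log2 in adults as deposited, and none was called with all 12 arrays (lowest adjusted p 0.6002). Yp1 read 13.96, 13.83 and 13.92 in adult knockdown, against 14.05, 14.13 and 14.13 in adult wild type (-0.20). The groups did not overlap, and Yp1 fell in the fit to the adult arrays alone (adjusted p = 0.0035), but with median centring its change was 0.08 and was not called. Yp2, the neighbour of Yp1 in the genome, differed by -0.06 and overlapped, but turned to 0.22 with median centring and was then called in the adult arrays alone (adjusted p = 0.00126).

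Yp3 read 13.99, 13.91 and 13.98 in adult knockdown, against 13.83, 13.88 and 13.80 in adult wild type (0.12). It rose in the adult arrays alone (adjusted p = 0.0188) and under median centring (0.40), but the call was lost without adult knockdown replicate 1, adult wild-type replicate 1 or adult wild-type replicate 3 (adjusted p 0.0535, 0.0556 and 0.0772). The receptor gene yl, which encodes Yolkless, differed by 0.08 and was not called, but with median centring it was called in the adult arrays alone (0.36, adjusted p = 0.00189). The summed linear signal of the 4 genes was 48278 to 52173 in adult knockdown and 50870 to 52733 in adult wild type, and these ranges overlap.

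Of 16 measured genes that control yolk protein synthesis or lipoprotein uptake, 1 was called higher and 4 lower in knockdown adults with all 12 arrays, close to the 30.4% of all genes called. With median centring 8 were called higher and 2 lower, where 37.8% of all genes were called higher and 6.42% lower. The GATA factor gene srp, a regulator of fat body genes, fell (-0.57, SE 0.08, adjusted p = 0.000323). The sex-determination splicing factor gene tra rose (0.43, SE 0.08, adjusted p = 0.00166). Fallen genes also included jhamt, which encodes an enzyme of juvenile hormone synthesis (-1.39, SE 0.31, adjusted p = 0.00569), and the lipophorin receptor gene LpR1 (-0.33, SE 0.09, adjusted p = 0.0157; not called with median centring, -0.05). The lowest jhamt array of the wild type read 6.98 and the highest of the knockdown 6.58, so the groups did not overlap.

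Eggshell genes were lower in point estimate in adult knockdown for 15 of 15, with a median log2 change of -0.29, where the median of all genes was -0.05. None was called with all 12 arrays (adjusted p 0.105 to 0.944). The sign of the changes depended on scaling, while the group median lay below that of all genes under each scaling. Quantile normalization kept 15 of 15 lower (median -0.20, all genes 0.01). With median centring 9 were lower and 6 higher (median -0.01, all genes 0.23). The groups of arrays did not overlap for 7 of 15 genes, all lower in the knockdown, where 32.9% of all genes were so separated downward.

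Vm26Ac, a vitelline membrane protein gene, read 9.26, 9.19 and 9.52 in adult knockdown, against 10.06, 10.15 and 10.28 in adult wild type. It lay 1.79-fold lower and fell in the adult arrays alone (-0.84, adjusted p = 0.00013). The nearby vitelline membrane gene Vm26Aa differed by only -0.15 and turned to 0.13 with median centring. It was called on opposite sides under these scalings (adjusted p = 0.0117 and 0.0309).

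Cp7Fc, a chorion gene of the X-linked cluster, read 10.94, 10.28 and 10.69 in adult knockdown, against 11.84, 11.15 and 11.50 in adult wild type. It fell in the adult arrays alone (-0.86, adjusted p = 0.00494). Its cluster neighbours Cp36 and Cp38 differed less (-0.22 and -0.28, adjusted p = 0.00956 and 0.0145 in the adult arrays alone) and were not called with median centring (0.06 and -0.003).

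The eggshell protease gene ndl, which encodes Nudel, also needed for embryonic dorsoventral patterning, read 9.47, 9.44 and 9.37 in adult knockdown, against 9.97, 9.84 and 10.04 in adult wild type. It fell in the adult arrays alone (-0.52, adjusted p = 0.000305). Cp7Fc, Vm26Ac and ndl were the eggshell genes called lower in the adult arrays alone under the deposited scaling, quantile normalization and median centring alike (median centring -0.58, -0.56 and -0.24), and they stayed called without any 1 adult array. The chorion assembly gene dec-1 fell too (-0.33, adjusted p = 0.00305), but was not called with median centring (-0.05).

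In the late chorion cluster on the third chromosome, Cp18, Cp15, Cp19 and Cp16 lie next to each other, and 1 knockdown array decided much of what was seen there. Cp18 read 12.85, 11.16 and 12.89 in adult knockdown, against 12.95, 13.22 and 13.12 in adult wild type. Cp15 read 13.83, 12.67 and 13.35 in adult knockdown, against 13.74, 13.54 and 13.78 in adult wild type. Adult knockdown replicate 2 was the lowest array for both.

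Without that array the change of Cp18 was -0.23 in place of -0.80, and that of Cp15 was -0.10 in place of -0.41. In the adult arrays alone Cp18 was not called with it (adjusted p = 0.116) and was called without it (adjusted p = 0.0298). Cp16 fell in that fit (-0.38, adjusted p = 0.0201), but not without adult knockdown replicate 1, adult knockdown replicate 2 or adult wild-type replicate 3 (adjusted p 0.0561, 0.0649 and 0.0538). The Cp16 call was also lost there with quantile normalization (-0.31, adjusted p = 0.0539) and with median centring (-0.10, adjusted p = 0.433). Cp19 was not called (-0.29, adjusted p = 0.0779).

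The remaining eggshell genes showed no call in any of these fits with all adult arrays and the deposited scaling. Vm34Ca, a vitelline membrane gene, differed by -0.02 and turned to a called 0.26 with median centring. Vm32E differed by -0.19, psd, also a vitelline membrane gene, by -0.12, and the follicle cell protein gene Fcp3C by -0.06, and all 4 overlapped between groups. With median centring these 3 turned to 0.09, 0.16 and 0.22 and were not called. Of 9 further eggshell genes outside the set, 0 were called with all 12 arrays, and 1 fell in the adult arrays alone as deposited: Femcoat, an eggshell protein gene (-0.998, adjusted p = 0.00296).

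**Figure D3:**
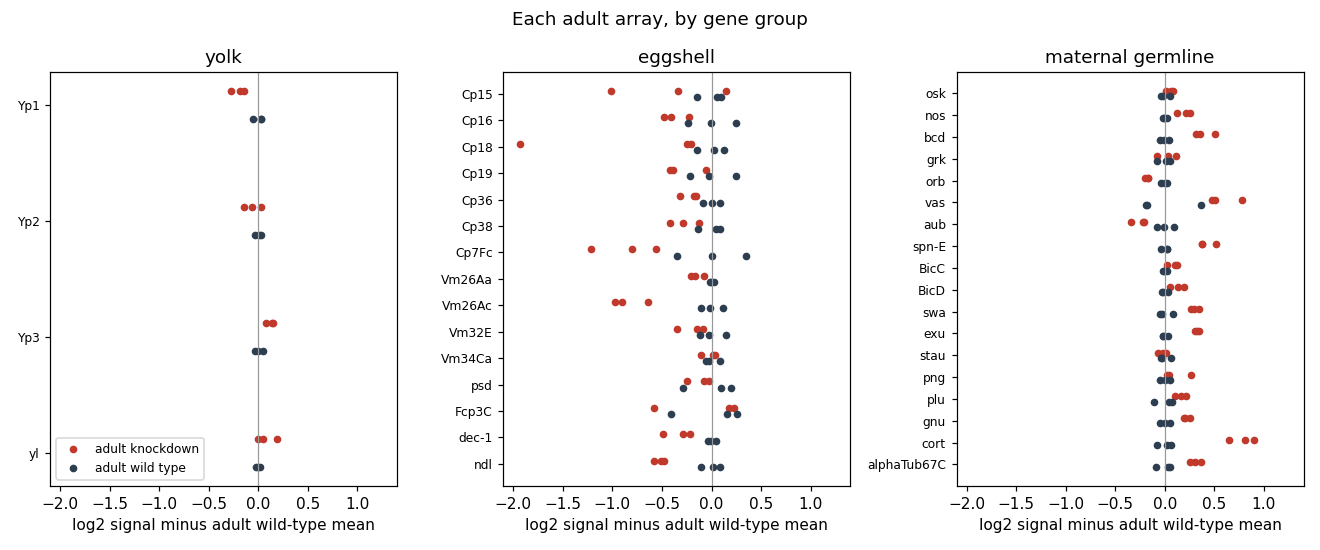
Log2 MAS5 signal of each adult array minus the adult wild-type mean of the gene (horizontal axis), by gene, for yolk, eggshell and maternal germline genes. The low point of Cp18 and of Cp15 is adult knockdown replicate 2, and the knockdown points of Vm26Ac, Cp7Fc and ndl lie left of all wild-type points.

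Maternal germline genes were mostly higher in point estimate in adults. Of 18, 15 were higher in point estimate and 3 lower in the knockdown, with a median log2 change of 0.18 (all genes -0.05). With median centring, which moved the median of all genes to 0.23, 18 were higher (median 0.46). The knockdown arrays lay wholly above the wild-type arrays for 11 of 18 genes, where 27.9% of all genes were so separated upward, and wholly below for 2. With all 12 arrays 2 were called, both higher, which is no larger a share than the 14.2% of all genes called higher. Over the 18 genes the summed linear signal was 56003 to 58682 in adult knockdown and 50231 to 51299 in adult wild type, while that of the eggshell genes was 88023 to 102241 in adult knockdown and 111102 to 118604 in adult wild type. Sums were taken only as deposited, here and for the other lists. Median centring moved the median eggshell change from -0.29 to -0.01, so the separation of the eggshell sums may depend on scaling.

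The gene cort encodes an activator of the anaphase-promoting complex used in female meiosis. It read 10.07, 9.98 and 9.82 in adult knockdown, against 9.09, 9.19 and 9.23 in adult wild type. It was 1.73-fold higher in the knockdown (0.79, SE 0.26, adjusted p = 0.0418 with all 12 arrays). The adult arrays alone gave an adjusted p of 5.43e-05, with the SE reduced to 0.07, and the call held there without any 1 adult array.

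The helicase gene spn-E, which acts in piRNA silencing of transposons, read 10.84, 10.98 and 10.84 in adult knockdown, against 10.48, 10.48 and 10.42 in adult wild type (0.43, SE 0.13, adjusted p = 0.0322). The calls of cort and spn-E with all 12 arrays were each lost without any 1 of the 6 adult arrays (adjusted p up to 0.119 and 0.118). That of cort was also lost with quantile normalization, no filter, no variance trend and a replicate block, 10 of 22 alternatives in all. In the adult arrays alone spn-E was called with and without each array.

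Other germline genes that rose in the adult arrays alone encode products of egg patterning and egg activation. Among the genes of bcd mRNA and its localization, bcd itself, the anterior determinant, read 11.71, 11.90 and 11.75 in adult knockdown, against 11.39, 11.44 and 11.35 in adult wild type (0.40, adjusted p = 0.000455). The localization factor gene swa rose by 0.30 (adjusted p = 0.000956). The posterior determinant gene nos rose by 0.20 (adjusted p = 0.00319), and gnu, an activating subunit of the PAN GU kinase of egg activation, by 0.21 (adjusted p = 0.00178). The maternal tubulin gene alphaTub67C rose by 0.31 (adjusted p = 0.00083).

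The PAN GU catalytic subunit gene png and its partner plu differed by 0.11 and 0.16 and were not called. The posterior determinant gene osk differed by 0.06 at the 1 of its 3 probe sets with the highest mean over all arrays, BicC, a translational repressor gene, by 0.08, and BicD by 0.13, none of them called as deposited. Changes of 0.02 for grk and -0.02 for stau were within their errors. With median centring all 7 of these genes were called higher in the adult arrays alone. The changes were 0.26 for stau, whose direction turned, 0.30 for grk and 0.34 to 0.44 for the others. That fit called 45% of all genes higher, with a median change of 0.23 over all genes. BicD and grk were also called higher with all 12 arrays under that scaling (adjusted p = 0.00116 and 0.0225), where 37.8% of all genes were. The dim probe set of vas differed by 0.59 in the adult arrays alone (adjusted p = 0.0527) and was called with quantile normalization or median centring (0.66 and 0.87). The germline genes that fell in the adult arrays alone were orb, a translational regulator of oocyte mRNAs (-0.19, adjusted p = 0.00303), and aub, a Piwi-family gene (-0.25, adjusted p = 0.00926). Both turned to small uncalled positive values with median centring (0.09 and 0.03).

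The 2 probe sets of exu, which encodes a factor for bcd mRNA localization and is known to make different transcripts in the male and female germline, moved apart in adults. The brighter probe set read 12.46, 12.44 and 12.42 in adult knockdown, against 12.15, 12.10 and 12.10 in adult wild type (0.32, SE 0.12, adjusted p = 0.0535). The dimmer probe set read 9.88, 9.64 and 9.83 in adult knockdown, against 10.11, 10.11 and 10.23 in adult wild type (-0.37, SE 0.15, adjusted p = 0.0788). Neither overlapped between groups, and the adult arrays alone called the one higher and the other lower (adjusted p = 0.000107 and 0.00307). With median centring the dimmer one was not called (-0.09). Which transcripts each probe set detects was not examined here.

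Of 27 measured oogenesis genes outside the set, 2 were called higher and 2 lower with all 12 arrays, a smaller share than the 30.4% of all genes. In the adult arrays alone 12 were called higher and 7 lower, where 23.6% of all genes were called higher and 27.4% lower. With median centring and all 12 arrays, 9 were called higher and 1 lower, where 37.8% of all genes were called higher and 6.42% lower. The risen genes were pum, a translational repressor gene (0.28, SE 0.08, adjusted p = 0.0221), and me31B, an RNA helicase gene of mRNA storage granules (0.16, SE 0.05, adjusted p = 0.0393). The fallen genes were vls, a germ plasm assembly gene (-0.94, SE 0.12, adjusted p = 0.000173), and hts, an adducin-like gene of ring canals (-0.36, SE 0.08, adjusted p = 0.00519; not called with median centring, -0.08).

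The adult arrays also carried male transcripts, and many testis markers among them differed with the knockdown. Of 28 measured testis markers, 16 were called lower and 1 higher in knockdown adults, with a median log2 change of -0.55, where 16.2% of all genes were called lower and 14.2% higher. With median centring, which called 6.42% of all genes lower and 37.8% higher, 7 of these markers were called lower and 2 higher (median -0.27). Their summed linear signal was 16442 to 19631 in adult knockdown and 25507 to 28801 in adult wild type, and 6 of them were below background level in adult knockdown and 4 in adult wild type. Mst87F, a sperm protein gene, read 9.87, 9.27 and 9.39 in adult knockdown, against 10.62, 10.84 and 10.82 in adult wild type. Also lower were djl (-0.72, SE 0.12) and mia (-0.78, SE 0.15), while vis rose (2.24, SE 0.17, adjusted p = 2.23e-06), a gene nearly identical to its neighbour achi, so that their signals are uncertain.

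Of 19 accessory gland markers, 0 were called higher and 2 lower, with a median of -0.45 and 17 of 19 lower in point estimate. The 10.5% called lower is a smaller share than the 16.2% of all genes, of which 14.2% were called higher. With median centring 2 of the 19 were called higher and 1 lower, where 37.8% of all genes were called higher and 6.42% lower. Under that scaling 11 of 19 were lower in point estimate (median -0.17). The genes called as deposited were Acp53C14c (-1.83, SE 0.52, adjusted p = 0.0206) and msopa (-1.32, SE 0.43, adjusted p = 0.036; adjusted p = 0.0621 with median centring). The summed signal of the 19 was 49748 to 75292 in adult knockdown and 64727 to 86112 in adult wild type. None was below background level in either adult group. The male dosage compensation gene msl-2 was not called (0.40). The part of the animals' sex make-up in any of the adult differences was not tested.

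**Figure D4:**
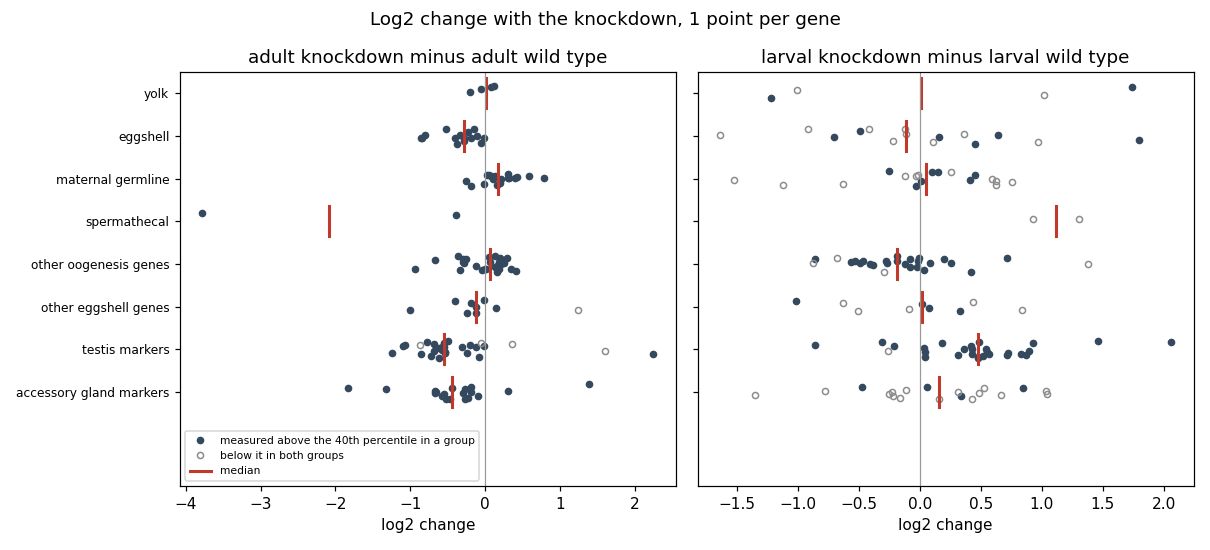
Log2 change of knockdown minus wild type (horizontal axis) for each gene of 8 lists (vertical axis), in adults on the left and larvae on the right, with the median of each list in red and genes below background level in both groups open. In adults the medians are -0.29 for eggshell, 0.18 for maternal germline and -0.55 for testis markers.

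In larvae, 5 of the 39 genes were called higher and 5 lower in the knockdown, where 26.8% of all genes were called (15.8% higher and 11% lower, and 9.72% and 13.4% with median centring). The counts are near the background. Of the 39 genes, 24 were below background level in both larval groups. Of the 10 calls, 3 had both groups below that level (Cp7Fc, Vm32E and orb) and 2 had 1 group below it (Yp2 and Fcp3C). Fitted to the 6 larval arrays alone, 1 was called higher and 1 lower, where 18.2% of all genes were called (10.2% higher and 8.04% lower). These were grk and Yp3, which were also the larval calls kept under all 22 other settings.

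Yp3 read 7.01, 7.35 and 7.33 in larval knockdown, against 8.11, 8.92 and 8.32 in larval wild type. The arrays did not overlap, and Yp3 was 2.33-fold lower in the knockdown (-1.22, SE 0.16, adjusted p = 0.000166, range over the other settings -1.39 to -0.98). Yp1, close to background in larvae, was not called.

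The larval fat body protein genes Lsp2 and Fbp2, known to be induced late in larval life, fell alongside. Lsp2 read 7.81, 6.99 and 6.28 in larval knockdown, against 9.78, 14.08 and 14.02 in larval wild type (-5.60, SE 0.89, adjusted p = 0.000652). Fbp2 was at least 77.4-fold lower in the knockdown (adjusted p = 0.000834). In adults Lsp2 was called higher in the knockdown (2.77, SE 0.89, adjusted p = 0.0344). Larval wild-type replicate 1 was the lowest of its group for Lsp2, Fbp2 and Yp3. The part of larval age in these differences was not tested.

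The ligand gene grk read 9.00, 9.03 and 9.00 in larval knockdown, against 8.71, 8.56 and 8.53 in larval wild type. The knockdown arrays lay above the wild-type arrays, and the change was small (0.42, SE 0.08, adjusted p = 0.00214, range 0.33 to 0.47). The dimmer exu probe set, which was lower in knockdown adults, read 9.71, 8.95 and 9.26 in larval knockdown, against 8.58, 8.60 and 8.61 in larval wild type (0.70, SE 0.15, adjusted p = 0.00381). The brighter exu probe set was not called in larvae (0.15, SE 0.12).

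The remaining larval calls were lost when the larval arrays were fitted alone. With all 12 arrays Vm34Ca was higher (0.64, SE 0.18, adjusted p = 0.0205), as was spn-E (0.45, SE 0.13, adjusted p = 0.0274; not called with median centring, 0.36), and Cp19 was lower (-0.70, SE 0.21, adjusted p = 0.0276). Their larval arrays overlapped between the groups. For Yp2 and Fcp3C knockdown larvae lay at least 1.41-fold higher and, in the second case, at least 1.10-fold higher, taken against the background level of the wild-type larvae. For Cp7Fc, Vm32E and orb no fold is given.

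In larvae, 9 of the 28 testis markers were called higher and 0 lower in the knockdown. Of all genes 15.8% were called higher and 11% lower. With median centring 9 markers were called higher and 1 lower, against 9.72% and 13.4% of all genes. The summed signal of the 28 markers was 4359 to 6442 in larval knockdown and 3476 to 4032 in larval wild type. Of the 16 yolk control and uptake genes, 3 were called higher and 4 lower (2 and 4 with median centring), among them Mtp, a lipid transfer protein gene (0.45, SE 0.07, adjusted p = 0.000614), and the ecdysone receptor gene EcR (-0.93, SE 0.16, adjusted p = 0.000917). EcR was also called lower in knockdown adults (-0.53, SE 0.16, adjusted p = 0.023), but not with median centring (-0.25). Of the 27 further oogenesis genes 3 were called higher and 4 lower (2 and 6 with median centring), close to the 26.8% of all genes called, among them the mitotic cyclin gene CycB (-0.57, SE 0.04, adjusted p = 2.61e-06).

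The effect of the knockdown was compared between stages by an interaction term, adult effect minus larval effect. It was called for 3 of 39 genes, 1 higher and 2 lower, where 21.9% of all genes were called (8.17% higher and 13.8% lower). Yp3 had the more positive effect in adults (1.34, SE 0.23, adjusted p = 0.00209). More negative effects in adults were found for Send2 (-5.08, SE 0.77, adjusted p = 0.00113) and grk (-0.39, SE 0.11, adjusted p = 0.0266). For Send2 the larval side of this difference lies below background level in both groups, so its size is uncertain. The dimmer exu probe set, which did not stand for the gene in these counts, also differed (-1.07, SE 0.21, adjusted p = 0.00423).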

How the data were processed

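The authors deposited log2 signals, 1 for each probe set on each array; the submitters' processing notes name MAS5, with no version in the sources used here. The log2 scale was taken from the values: on the linear scale the trimmed mean was 500.01 to 500.02 on every array. Of 18952 probe sets, 183 controls were left out, and 12827 at or above the 40th percentile of their own array on at least 3 arrays were tested. The brightest probe set stood for a gene. All 39 measured genes passed this filter. Symbols came from the platform annotation. Probe sets with several symbols were not named, and nos and dec-1 were matched by Entrez identifier. Genes were taken as neighbours from the RefSeq gene table.

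A model with 4 group means was fitted in R 4.3.3 using limma 3.58.1 (eBayes with a variance trend, 8 residual degrees of freedom). P-values were adjusted by Benjamini-Hochberg. The fit was also run on simulated data, but no result of that run is given here and no call rests on it. The median SD of the 39 genes was 0.09 and 0.07 log2 in knockdown and wild-type adults. In knockdown and wild-type larvae it was 0.64 and 0.58. How this unequal spread affects the calls was not judged from the simulated data. With all 12 arrays the adult SE was larger than with the adult arrays alone for each of the 39 genes except Cp18. For ndl it was 0.84 with all 12 arrays and 0.07 with the adult arrays alone. For each eggshell gene called in larvae, the larval arrays alone gave the larger SE. That of Vm32E was 0.83 there and 0.31 with all 12 arrays. Precision is limited by 3 arrays per group. Every one of the 12 columns was tied to a sample (0 untied). The members and lists were chosen with earlier results of these data known. All members are named, with up to 4 called genes of smallest adjusted p of the other lists. Alternatives were other scalings, filters, variance models, array weights, a replicate block and leaving out arrays.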

Additional observations from a re-analysis of the deposited data

Results flagged for a closer look

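The effect of the knockdown differed between adults and larvae, by the interaction term of limma, for 4 probe sets of these genes. For Yp3 the adult effect minus the larval effect was 1.34 log2 (adjusted p = 0.00209). For Send2 it was -5.08 (adjusted p = 0.00113), with larval signal below background level in both groups. For grk it was -0.39 (adjusted p = 0.0266), and for the dimmer exu probe set it was -1.07 (adjusted p = 0.00423).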

How the results depend on the processing

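Under 22 alternatives Send2 stayed called in adults and Yp3 and grk in larvae. The number of the 39 genes called between adult knockdown and adult wild type was 3, and became 7 with median centring, 21 with only the adult arrays, 7 with array weights, 14 with dim values set to the 40th percentile and 1 to 4 without 1 array (1 without adult knockdown replicate 1 or 2 or any 1 adult wild-type array). Over all probe sets 3717 were called, and 6190 with only the adult arrays, 5778 with array weights and 2484 to 3964 without 1 array. Between larval groups 10 of 39 were called, and 2 with only the larval arrays, 6 with array weights, 6 with dim values set to the 40th percentile and 5 to 11 without 1 array (5 without larval wild-type replicate 3), with 2855 to 3189 of probe sets against 3287. With dim values set to the 40th percentile the larval changes of Cp7Fc, Vm32E and orb turned to 0.10 each, which is the difference of the percentiles themselves. For the interaction 3 were called, and 5 with median centring, 11 with dim values set to the 40th percentile and 2 to 6 without 1 array (6 and 5 without larval wild-type replicates 1 and 2). Over all probe sets the interaction gave 2665 calls, 4669 with median centring and 1881 to 2805 without 1 array. Wild-type adults against wild-type larvae gave 38 to 39 genes and 10142 to 10538 probe sets without 1 array, and knockdown adults against knockdown larvae 37 to 38 and 10030 to 10495. The adult arrays alone gave 18 to 24 calls without 1 array, an alternative chosen after seeing the data, as were its scalings (20 with quantile normalization and 25 with median centring) and those of the other gene lists. Replicate numbers did not pair the samples (correlation of deviations -0.09 to 0.02). A replicate block gave 2 calls in adults, 10 in larvae and 7 for the interaction, and could not be fitted for the stage comparisons. The cause of these shifts was not tested. Values near the 40th percentile have little signal over background, which limits most larval results.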
